A study of Mus musculus with 2 samples.

Results

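The lysosome genes described here are 39 mouse genes, chosen by name from the 19059 genes of the probe set and all found in it: 9 glycosidases, 5 sulfatases, 5 hydrolases of lipids and peptides, 3 hydrolase activators or granulin precursors, 10 membrane proteins, 4 subunits or partners of the proton pump (V-ATPase), and 3 genes of control or cargo binding. RNA was counted in single fixed cells of orthotopic KPC tumors, a mouse pancreatic cancer model grown in the pancreas, with probes that bind known transcripts. One sample came from mice given 10 mg/kg EIPA, an amiloride derivative that blocks sodium-proton exchange and is used to inhibit macropinocytosis, and the other from mice given DMSO, its solvent. Each sample pooled 4 tumors, so the spread between animals cannot be seen. The deposited matrix marks cells as library 2 (L2) or library 1 (L1), and no label ties either number to a treatment. All ratios are therefore of library 2 over library 1, an order alone, and say nothing of EIPA against DMSO.

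Lysosomes are acidic compartments in which hydrolases break down material taken in by endocytosis, phagocytosis and macropinocytosis or delivered by autophagy. The V-ATPase pumps protons into the lumen, and heavily glycosylated membrane proteins line it. Transcription factors of the MiT/TFE family, Tfeb and Tfe3 among them, are known to bind a sequence around the letters CACGTG, named the CLEAR motif, before many lysosomal genes. Phagocytes are known for a large lysosomal compartment, and pancreatic tumor cells for their use of lysosomes to recycle nutrients.

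Promoter letters were read for the 36 members with an entry in a RefSeq table of build GRCm38.p6, each from 250 bases before the start to 50 after it; Asah1, Atp6v1h and Galns had no entry. Cln3, Psap and Tfe3 have 2 such windows and Tfeb has 3, and a gene counted as holding a motif where any of its windows did, among the members and in the table as a whole. The motifs searched were CACGTG, TCACGTGA, which holds CACGTG, and the CLEAR motif, which is TCACGTGA with a G before it and a C after it; each reads alike on both strands. CACGTG was in the windows of 11 of 36 members (30.6%), which were Lamp1, Gla, Gaa, Glb1, Cln3, Arsa, Naglu, Sgsh, Mcoln1, Atp6v0d1 and Atp6v1a, against 8.09% of 27025 gene promoters of the same length. TCACGTGA was in 5 members (13.9%), against 1.12% of all, and the CLEAR motif was in Cln3 alone, against 0.37% of all. The 27025 genes were not limited to those of the probe set or to protein-coding genes, so they are a wider set than the one the members came from. A match is a run of letters and no evidence of binding. Below are the 250 bases before the start, 5′ to 3′ on the gene's strand, of 3 members with a match and of Gm2a, which had none and whose RNA differed most between dendritic-like and tumor-like cells; capitals mark the matches. Lamp1 lies at chr8:13158911-13159160 on the plus strand and held CACGTG 4 times. The Cln3 stretch lies at chr7:126583237-126583486 on the minus strand, while the gene's other window, chr7:126585768-126586067, held no match. Mcoln1 lies at chr8:3500269-3500518 on the plus strand and Gm2a at chr11:55097735-55097984 on the plus strand.
Lamp1: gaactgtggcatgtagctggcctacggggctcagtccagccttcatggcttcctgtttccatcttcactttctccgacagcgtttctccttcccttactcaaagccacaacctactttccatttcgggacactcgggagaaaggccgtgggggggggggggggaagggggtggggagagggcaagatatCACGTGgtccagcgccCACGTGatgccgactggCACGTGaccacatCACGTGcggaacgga
Cln3: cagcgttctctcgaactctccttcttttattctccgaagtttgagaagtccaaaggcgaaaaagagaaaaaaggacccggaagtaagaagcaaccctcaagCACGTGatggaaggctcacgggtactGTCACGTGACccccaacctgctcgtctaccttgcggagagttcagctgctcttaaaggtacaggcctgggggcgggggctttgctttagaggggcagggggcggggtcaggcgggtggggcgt
Mcoln1: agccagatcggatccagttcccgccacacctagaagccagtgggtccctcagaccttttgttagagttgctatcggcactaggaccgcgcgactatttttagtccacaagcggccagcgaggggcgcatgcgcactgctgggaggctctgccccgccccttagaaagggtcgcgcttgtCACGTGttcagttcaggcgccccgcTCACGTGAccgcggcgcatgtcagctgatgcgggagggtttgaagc
Gm2a: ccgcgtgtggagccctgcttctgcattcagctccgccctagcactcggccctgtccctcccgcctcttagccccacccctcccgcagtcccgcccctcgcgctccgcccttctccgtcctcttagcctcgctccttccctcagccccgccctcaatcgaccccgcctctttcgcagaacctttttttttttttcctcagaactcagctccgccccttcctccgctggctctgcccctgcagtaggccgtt

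The deposited counts held 11945 cells with 185474400 UMIs (unique molecules) in library 2 and 12337 cells with 203459556 UMIs in library 1, with medians of 10756 (L2) and 11695 UMIs (L1) in a cell. After filters and doublet removal 10781 cells of library 2 and 11114 of library 1 were kept. Cell classes were rebuilt by clustering without the 39 genes and named "-like" from other markers. Of all cells, 225 barcodes occur in both libraries. RNA of tumor cells was measured in every other class: 13 epithelial markers stood at a median of 17.5% to 36.9% of their tumor-like level in library 2 and 14.5% to 33.4% in library 1 across 7 non-tumor classes. Levels are UMIs of a gene scaled to the class total (CPM), with exact Poisson 95% intervals that cover counting error only. With 1 library per number no test was possible.

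Of the classes shown, macrophage-like and dendritic-like cells spent the largest share of their RNA on the 39 genes (the plot of the shares of UMIs by class). The share was 1.46% in library 2 and 1.08% in library 1 in dendritic-like cells (167 (L2) and 33 cells (L1)), and 1.30% in library 2 and 0.821% in library 1 in macrophage-like cells (773 (L2) and 807 cells (L1)). In epithelial tumor-like cells (4793 (L2) and 4518 cells (L1)) it was 0.404% in library 2 and 0.412% in library 1. Unnamed cells, which carried too few markers of any class, were at 0.393% in library 2 and 0.430% in library 1, near the tumor-like cells. Fibroblast-like cells were at 0.529% (L2) and 0.527% (L1), T or NK-like cells at 0.515% (L2) and 0.525% (L1), and neutrophil-like cells at 0.518% (L2) and 0.447% (L1). Pericyte-like and blood endothelial-like cells lay between 0.406% and 0.443% in both libraries. The intervals of the dendritic-like and macrophage-like shares overlapped with those of no other class shown in either library. A small unnamed cluster led by immune genes was left out of these classes. Its share was 0.833% (L2) and 1.0% (L1), which in library 1 is above that of macrophage-like cells.

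**Figure D1:**
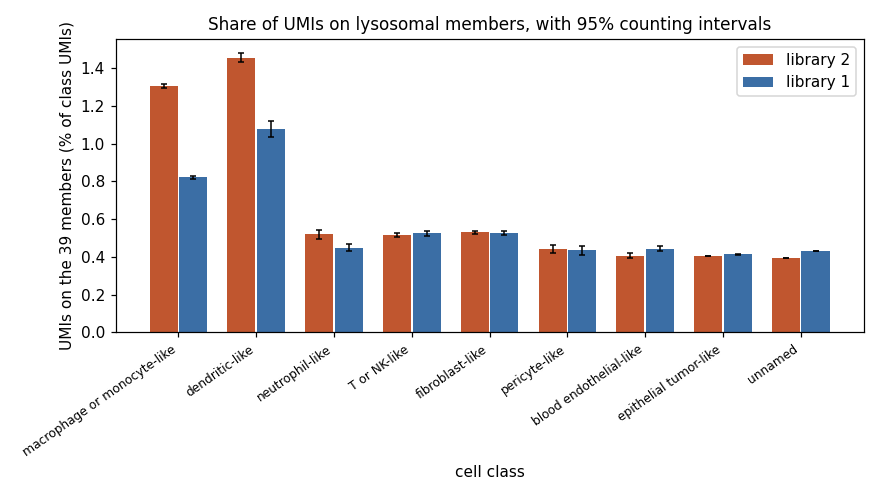
Share of each class's UMIs that fell on the 39 genes (y axis, percent), with library 2 left of library 1 in each class and 95% counting intervals as error bars. Dendritic-like cells (1.46% (L2) and 1.08% (L1)) and macrophage-like cells (1.30% (L2) and 0.821% (L1)) stand above all other classes shown, which lie at or under 0.529%. A small unnamed cluster led by immune genes, at 0.833% (L2) and 1.0% (L1), is not shown.

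Set against epithelial tumor-like cells, the 39 genes did not behave as a block. In macrophage-like cells 10 of 38 measured members were at least 2-fold higher in both libraries and 0 were lower, while 7.39% of all measured genes were higher and 4.58% lower. In dendritic-like cells 11 of 37 were higher and 0 lower, against 8.48% and 6.28% of all genes. A member's count in the other classes was closer to the background: 5 of 35 higher and 1 lower in fibroblast-like cells (8.94% and 11.6% of all genes), 3 of 36 higher in T or NK-like cells (5.95%), 3 of 36 in neutrophil-like cells (4.74%), 3 of 35 in pericyte-like cells (8.63%) and 2 of 35 in blood endothelial-like cells (9.62%). In the last 4 of these classes 0 members were lower, where 1.82%, 3.19%, 8.96% and 7.72% of all genes were. The median member was at 1.68 times its tumor-like level in library 2 and 1.34 times in library 1 in macrophage-like cells, where the median of all genes was at 0.886 in L2 and 0.979 in L1. A member counted as measured where it reached 20 CPM in either class and 30 UMIs over both classes in each library. Gla, Gpnmb, Sgsh and Cd68 missed this in 1 or more classes, and the other 35 members in none.

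**Figure D2:**
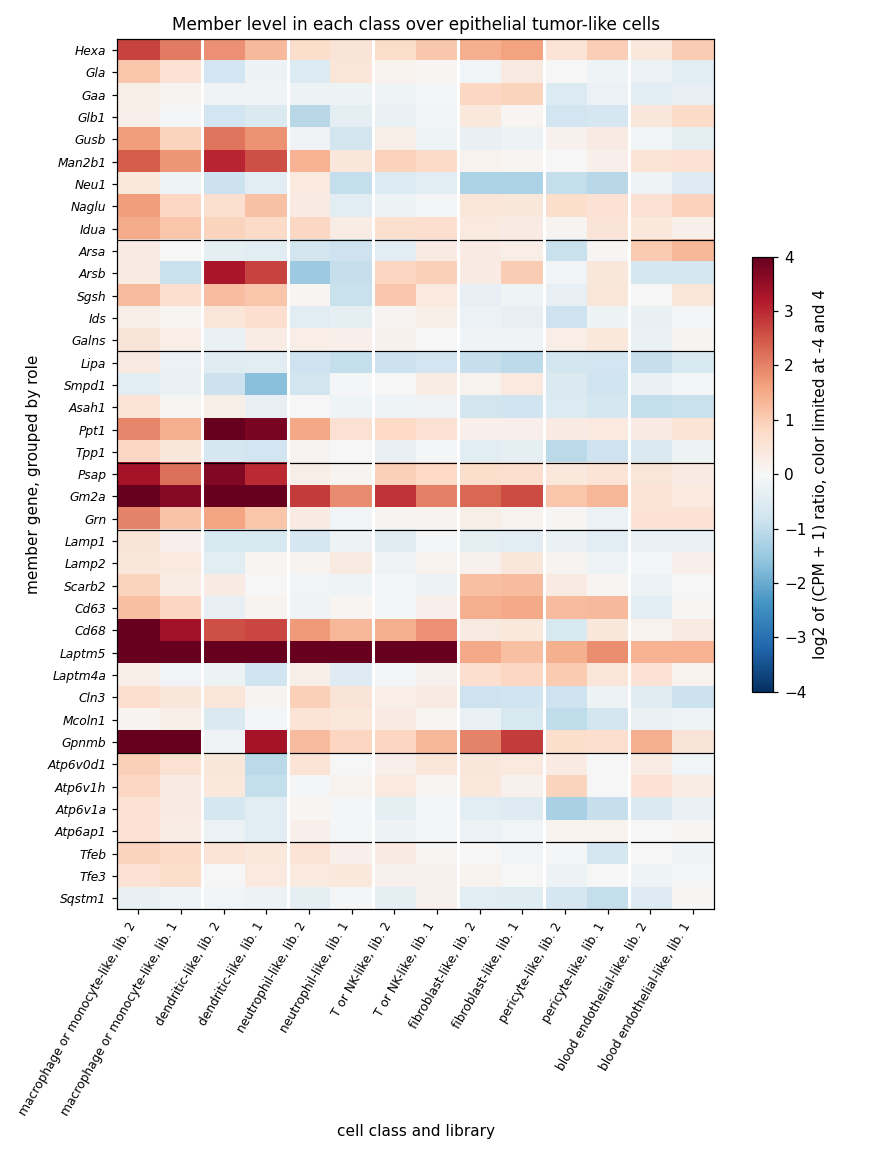
Level of each of the 39 genes (rows, grouped by role from glycosidases at the top to control genes at the bottom) in 7 non-tumor classes over epithelial tumor-like cells, as log2 of the ratio of CPM + 1, with library 2 left of library 1. Gm2a and Laptm5 are red in most classes, Psap, Man2b1, Ppt1 and Hexa in macrophage-like and dendritic-like cells, and the V-ATPase and control rows are mostly near white.

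Among the glycosidases, which strip sugars from glycoproteins, glycolipids and glycosaminoglycans, 3 of 9 were past 2-fold in macrophage-like cells. Hexa, the alpha subunit of beta-hexosaminidase, had 375 CPM in library 2 and 266 CPM in library 1 in macrophage-like cells, against 56.8 (L2) and 62.1 CPM (L1) in tumor-like cells. Man2b1, the acid alpha-mannosidase, had 434 (L2) and 312 CPM (L1) in macrophage-like cells, against 80.8 (L2) and 91.2 CPM (L1) in tumor-like cells. These 2 genes were also higher in dendritic-like cells, Hexa by 3.54-fold in library 2 and 2.45-fold in library 1 and Man2b1 by 8.19-fold and 5.94-fold. Idua, the iduronidase that acts on dermatan and heparan sulfate, had 83.0 (L2) and 68.6 CPM (L1) in macrophage-like cells, against 28.9 (L2) and 31.6 CPM (L1) in tumor-like cells. Gusb, the beta-glucuronidase, had 453 (L2) and 344 CPM (L1) in dendritic-like cells, against 102 (L2) and 99.0 CPM (L1) in tumor-like cells. Gusb in macrophage-like cells was 3.17-fold higher in library 2 and 1.84-fold in library 1, so it passed the limit in a single library. The same held for Naglu, which removes N-acetylglucosamine from heparan sulfate (3.20 in L2 and 1.78 in L1), and Gla, the alpha-galactosidase (2.14 in L2 and 1.48 in L1). Hexa was past 2-fold in fibroblast-like cells too, at 157 CPM in library 2 and 191 CPM in library 1.

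The remaining glycosidases showed another order of classes. Neu1, the sialidase, was the only member past 2-fold lower in any class, with 32.3 (L2) and 40.4 CPM (L1) in fibroblast-like cells, against 78.5 (L2) and 99.3 CPM (L1) in tumor-like cells. That count was 0 in fibroblast-like cells with TMM factors, with median-of-ratios factors and without doublet removal, while other alternatives gave up to 2 members lower in fibroblast-like, 1 in blood endothelial-like and 3 in neutrophil-like cells. Gaa, which degrades glycogen, was highest in fibroblast-like cells in both libraries, at 222 (L2) and 270 CPM (L1), against 126 (L2) and 144 CPM (L1) in tumor-like cells, which is under 2-fold. Glb1, the beta-galactosidase, was highest in blood endothelial-like cells, at 121 (L2) and 152 CPM (L1), but its interval there overlapped that of the next class in at least 1 library.

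Of the 5 sulfatases, which remove sulfate groups, none of the 4 measured was past 2-fold in both libraries in macrophage-like cells. Arsb, arylsulfatase B, was set apart by dendritic-like cells, with 276 CPM in library 2 and 185 CPM in library 1, against 28.1 (L2) and 27.6 CPM (L1) in tumor-like cells. In macrophage-like cells it had 35.7 (L2) and 14.5 CPM (L1). Sgsh, a sulfatase of heparan sulfate, had 27.7 (L2) and 27.1 CPM (L1) in dendritic-like cells, against 11.1 (L2) and 12.1 CPM (L1) in tumor-like cells. Arsa, arylsulfatase A, was highest in blood endothelial-like cells, with 91.4 (L2) and 92.4 CPM (L1), against 43.8 (L2) and 36.6 CPM (L1) in tumor-like cells. Arsb and Arsa thus peaked in classes other than macrophage-like cells, and without the 3 highest cells of each library 0 members passed in blood endothelial-like cells. Ids and Galns, sulfatases of iduronate and of galactosamine sugars, were between 0.560 and 1.59 times their tumor-like level in all 7 classes.

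Among hydrolases of lipids and peptides, Ppt1 alone stood out. Ppt1, the thioesterase that removes palmitate from proteins, had 1403 CPM in library 2 and 959 CPM in library 1 in dendritic-like cells and 241 (L2) and 190 CPM (L1) in macrophage-like cells, against 61.2 (L2) and 68.4 CPM (L1) in tumor-like cells. Lipa, the acid lipase for cholesteryl esters, was at 173 (L2) and 133 CPM (L1) in macrophage-like cells, against 135 (L2) and 156 CPM (L1) in tumor-like cells, so the 2 libraries lay on either side of 1. Asah1, the acid ceramidase, Smpd1, the acid sphingomyelinase, and Tpp1, a tripeptidyl peptidase, stayed between 0.751 and 1.77 times the tumor-like level in macrophage-like cells of both libraries.

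The 3 activator and granulin genes were past 2-fold in both macrophage-like and dendritic-like cells. Gm2a, the activator that presents gangliosides to beta-hexosaminidase, had 3603 CPM in library 2 and 2184 CPM in library 1 in dendritic-like cells. In macrophage-like cells it had 1350 (L2) and 555 CPM (L1), against 51.3 (L2) and 43.8 CPM (L1) in tumor-like cells. The order dendritic-like, macrophage-like, tumor-like held in both libraries without overlap of intervals. Psap, the precursor of the saposins, had 3277 (L2) and 2117 CPM (L1) in dendritic-like cells and 2550 (L2) and 1223 CPM (L1) in macrophage-like cells, against 252 (L2) and 265 CPM (L1) in tumor-like cells. Grn, the precursor of the granulins, had 1344 (L2) and 959 CPM (L1) in dendritic-like cells and 1794 (L2) and 969 CPM (L1) in macrophage-like cells, against 453 (L2) and 441 CPM (L1) in tumor-like cells. Gm2a was past 2-fold in fibroblast-like (4.88 in L2 and 6.16 in L1), T or NK-like (7.46 in L2 and 4.01 in L1), neutrophil-like (6.98 in L2 and 3.75 in L1) and pericyte-like cells (2.157 in L2 and 2.502 in L1) as well. RNA of macrophage-like cells was also seen in these classes: the median of 11 macrophage markers was at 6.18% (L2) and 6.64% (L1) of its macrophage-like level in fibroblast-like cells, at 14.7% (L2) and 26.4% (L1) in T or NK-like cells and at 4.70% (L2) and 7.06% (L1) in neutrophil-like cells. Gm2a was at 18.8% (L2) and 49.6% (L1), at 28.8% (L2) and 32.2% (L1) and at 27.0% (L2) and 30.1% (L1) of its own macrophage-like level in those 3 classes, above the marker value in each. Dendritic markers were seen in these 3 classes too, and dendritic-like cells had the most Gm2a. They summed to 82.6 (L2) and 58.0 CPM (L1) in fibroblast-like cells and to 237 (L2) and 116 CPM (L1) in T or NK-like cells. In neutrophil-like cells they summed to 281 (L2) and 159 CPM (L1), against 3183 (L2) and 2383 CPM (L1) in dendritic-like cells. The part of carried-over RNA of either kind in these levels was not tested.

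Of the 10 membrane proteins, 3 were past 2-fold in macrophage-like cells. Laptm5, a lysosomal membrane protein of blood cells, had 857 CPM in library 2 and 513 CPM in library 1 in macrophage-like cells, against 15.4 (L2) and 14.4 CPM (L1) in tumor-like cells. Dendritic-like cells had 711 (L2) and 592 CPM (L1), T or NK-like cells 561 (L2) and 496 CPM (L1), and neutrophil-like cells 423 (L2) and 305 CPM (L1). Laptm5 therefore stood high in every blood-derived class, and its 46.0 (L2) and 34.7 CPM (L1) in fibroblast-like cells were 5.37% (L2) and 6.76% (L1) of the macrophage-like level, near the 6.18% (L2) and 6.64% (L1) of the macrophage markers there. Cd68, a glycoprotein used as a phagocyte marker and not used here to name cells, had 258 (L2) and 163 CPM (L1) in macrophage-like cells, against 13.9 (L2) and 14.8 CPM (L1) in tumor-like cells. Gpnmb, a glycoprotein of phagocytes and pigment cells, had 239 (L2) and 94.2 CPM (L1) in macrophage-like cells, against 1.38 (L2) and 1.78 CPM (L1) in tumor-like cells. Its UMIs came from few cells, 92 of 773 in library 2 and 82 of 807 in library 1, and 39.3% (L2) and 24.1% (L1) of them lay in 3 cells of each library. Cd68 in T or NK-like cells was at 15.4% (L2) and 33.8% (L1) of its macrophage-like level, near the 14.7% (L2) and 26.4% (L1) of the macrophage markers. In neutrophil-like cells it was at 18.4% (L2) and 23.7% (L1), against 4.70% (L2) and 7.06% (L1) for the median marker. The highest single marker there was at 103% (L2) and 157% (L1).

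Cd63, a tetraspanin of late endosomes, and Scarb2, the receptor that carries glucocerebrosidase to the lysosome, were highest in fibroblast-like cells in both libraries. Cd63 had 1154 CPM in library 2 and 887 CPM in library 1 there and 1003 (L2) and 750 CPM (L1) in pericyte-like cells, against 417 (L2) and 307 CPM (L1) in tumor-like cells. Scarb2 had 203 (L2) and 204 CPM (L1) in fibroblast-like cells, against 86.7 (L2) and 85.1 CPM (L1) in tumor-like cells. Lamp1 and Lamp2, which coat the inner face of the membrane, differed less between classes. Lamp1 was highest in macrophage-like cells, at 422 (L2) and 392 CPM (L1), against 294 (L2) and 339 CPM (L1) in tumor-like cells, a ratio of 1.43 in L2 and 1.16 in L1. Lamp2 lay between 0.735 and 1.38 times its tumor-like level in all 7 classes. Cln3, the membrane protein lost in juvenile Batten disease, and Mcoln1, the lysosomal cation channel, were highest in neutrophil-like cells, with 200 (L2) and 132 CPM (L1) for Cln3 and 119 (L2) and 132 CPM (L1) for Mcoln1, though the intervals overlapped with those of the next class. Laptm4a, a relative of Laptm5, passed 2-fold in both libraries in none of the classes.

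None of the 4 pump genes and none of the 3 control genes was past 2-fold in both libraries in any of the 7 classes. In macrophage-like cells the pump genes were at 1.504 to 1.94 times the tumor-like level in library 2 and at 1.23 to 1.53 times in library 1. Atp6v1a, the catalytic subunit, had 160 (L2) and 123 CPM (L1) there, against 106 (L2) and 98.7 CPM (L1) in tumor-like cells. Atp6v0d1, a subunit of the membrane sector, had 94.5 (L2) and 89.2 CPM (L1), against 48.2 (L2) and 58.0 CPM (L1). Atp6ap1, an accessory protein, and Atp6v1h, a regulatory subunit, lay within the same range. Tfeb had 72.3 (L2) and 69.6 CPM (L1) in macrophage-like cells, against 38.4 (L2) and 40.1 CPM (L1) in tumor-like cells, and Tfe3 had 110 (L2) and 112 CPM (L1), against 72.6 (L2) and 68.8 CPM (L1). The RNA of both factors was thus highest in macrophage-like cells in both libraries. For Tfe3 the interval was apart from that of unnamed cells, the next class by level. Neutrophil-like cells, with far fewer UMIs, were at 86.75% (L2) and 81.87% (L1) of the macrophage-like Tfe3 level. Their wider intervals were not compared. In the macrophage-like cells of low UMI count alone, a split described further on, Atp6v0d1 was past 2-fold, with 109 (L2) and 125 CPM (L1), against 45.1 (L2) and 58.9 CPM (L1) in the tumor-like cells of that finer clustering. Tfeb was past it there too, with 84.5 (L2) and 85.2 CPM (L1), against 37.1 (L2) and 39.2 CPM (L1). Sqstm1, the cargo receptor of autophagy, was the only member highest in unnamed cells in both libraries, with 201 (L2) and 196 CPM (L1), and at 148 (L2) and 136 CPM (L1) in tumor-like cells.

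Across all 9 classes, 29 of the 39 members had the same highest class in both libraries: 13 in macrophage-like cells, 7 in dendritic-like cells, 4 in fibroblast-like cells, 2 each in blood endothelial-like and neutrophil-like cells and 1 in unnamed cells. In 16 of the 29 the intervals of the highest class and the next were apart in both libraries. Classes further down the order were not compared, and those with few UMIs have wider intervals. None of the 11 members with CACGTG in the promoter window was among the 10 members past 2-fold in macrophage-like cells, and all 10 were among the 25 with a window and no match. Sgsh, 1 of the 11, was not measured there, and 7.39% of all measured genes were past 2-fold higher. In the macrophage-like cells of low UMI count, 3 of the 11, Naglu, Sgsh and Atp6v0d1, and 14 of the 25 were past 2-fold, against 11.6% of all genes. The shares of all genes were not split by motif, so a link of motif and level was not tested.

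The dendritic-like class joined 2 clusters whose lysosomal RNA differed widely. One was marked by Xcr1 and Clec9a (138 cells in library 2, 21 in library 1), genes of cross-presenting dendritic cells, and the other by Ccr7 and Ccl22 (29 (L2) and 12 cells (L1)), genes of mature migrating dendritic cells. The 39 genes took 1.64% of UMIs in library 2 and 1.36% in library 1 in the Xcr1-marked cluster, against 0.539% (L2) and 0.476% (L1) in the Ccr7-marked cluster. With both libraries summed, 12 of 37 measured members were at least 2-fold higher in the Xcr1-marked cluster and 2 lower, against 9.95% and 7.18% of all genes. Ppt1 had 1665 (L2) and 1373 CPM (L1) in the Xcr1-marked cluster, against 70.3 (L2) and 71.0 CPM (L1) in the Ccr7-marked cluster. Gm2a had 4252 (L2) and 3152 CPM (L1), against 302 (L2) and 114 CPM (L1), and Arsb had 328 (L2) and 259 CPM (L1), against 14.1 (L2) and 28.4 CPM (L1). The high dendritic-like levels of these 3 genes were thus those of the Xcr1-marked cluster. Psap was 7.33-fold, Cd68 5.48-fold, Man2b1 4.34-fold, Laptm5 3.69-fold, Grn 3.47-fold, Hexa 3.37-fold, Gusb 2.40-fold, Lipa 2.15-fold and Asah1 2.07-fold higher in sum. Lipa was under 2-fold in library 1 (133 against 71.0 CPM) and Asah1 in library 2 (177 against 98.5 CPM). Cd63 ran the other way in both libraries, with 234 (L2) and 219 CPM (L1), against 816 (L2) and 568 CPM (L1). Gaa was lower in sum, yet only in library 2 (78.8 against 295 CPM), while library 1 had 153 against 85.2 CPM. The Ccr7-marked cluster gave 766 (L2) and 335 UMIs (L1) on all members, and Arsb and Cd68 rest there on 2 UMIs in each library.

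**Figure D3:**
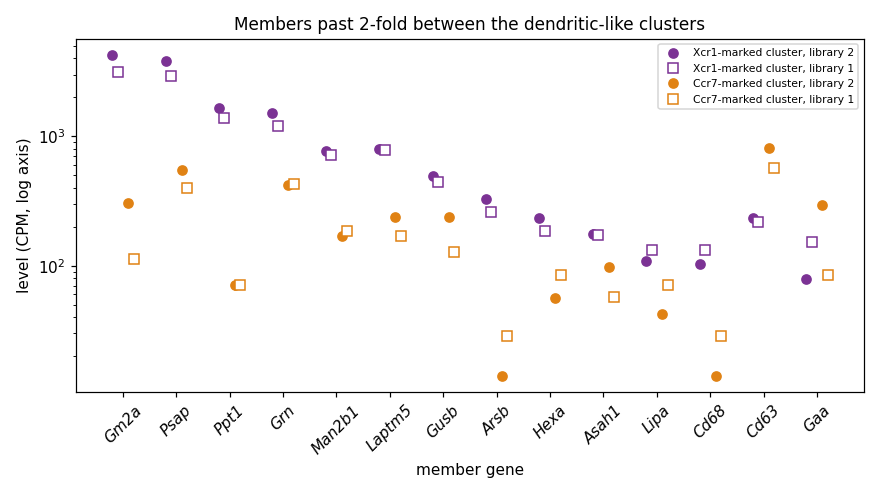
Level of the 14 members past 2-fold between the dendritic-like clusters (CPM, log axis), with the Xcr1-marked cluster left of the Ccr7-marked cluster and library 2 (filled) left of library 1 (open). Gm2a, Psap and Ppt1 are above 1000 CPM in the Xcr1-marked cluster of both libraries and under 600 CPM in the Ccr7-marked cluster, and Cd63 has the opposite order.

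Between libraries, the 39 genes were nearly level in tumor-like cells. None of 34 measured members was past 1.5-fold in epithelial tumor-like cells, where 2.02% of all genes were higher and 1.57% lower in library 2. The log2 ratios ran from -0.41 for Atp6v1h, with 39.9 CPM in library 2 and 53.2 CPM in library 1, to 0.44 for Cd63, with 417 (L2) and 307 CPM (L1), around a median of -0.09. Unnamed cells also had 0 of 33 members past 1.5-fold (1.93% of all genes higher and 1.22% lower), with a median of -0.20 and 5 members above 0. The ratios there ran from Lipa, with 70.9 CPM in library 2 and 102 CPM in library 1 (log2 -0.51), to Cd63, with 523 (L2) and 395 CPM (L1) (0.40). Cd63 was the member with the highest ratio in both of these classes. The clusters that make up the tumor-like and unnamed cells differed between libraries, such as 876 (L2) and 93 cells (L1) in one tumor-like cluster and 23 (L2) and 339 cells (L1) in another, and the part of this in the ratios was not tested.

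In macrophage-like cells, 12 of 39 members were at least 1.5-fold higher in library 2 and 0 lower, while 7.56% of all genes were higher and 8.08% lower. They were the hydrolases Gusb, Arsa, Arsb and Naglu, the activators and granulin gene Psap, Gm2a and Grn, and the membrane proteins Scarb2, Cd63, Cd68, Laptm5 and Gpnmb. Gm2a had 1350 CPM (1312 to 1388) in library 2 and 555 CPM (536 to 574) in library 1, a log2 ratio of 1.28. Psap had 2550 (L2) and 1223 CPM (L1) (log2 1.06), and Grn 1794 (L2) and 969 CPM (L1) (0.89). All 3 were also past 2-fold over tumor-like cells in both libraries. Gpnmb had the highest ratio, with 239 (L2) and 94.2 CPM (L1) (1.33), followed by Gm2a and by Arsb, with 35.7 (L2) and 14.5 CPM (L1) (1.25). Gusb had 325 (L2) and 183 CPM (L1) (0.83), Cd63 965 (L2) and 554 CPM (L1) (0.80), and Laptm5 857 (L2) and 513 CPM (L1) (0.74). The other 4 had ratios of 0.61 to 0.66. The pump genes and the control genes had ratios between -0.03 and 0.38, and Mcoln1 had the lowest of all members, with 87.9 CPM in library 2 and 117 CPM in library 1 (-0.41).

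The macrophage-like class itself differed between the libraries in what it held. All 11 of the markers that named it were above 0 too, 5 of them past 1.5-fold, with a summed 8909 CPM in library 2 and 5624 CPM in library 1, while the epithelial markers in it summed to 2567 (L2) and 3272 CPM (L1). At a finer clustering, chosen as an alternative after the data had been seen, the class split into cells of low UMI count (668 cells in library 2 and 525 in library 1, medians of 2505 (L2) and 2178 UMIs (L1)) and cells of high UMI count (96 (L2) and 257 cells (L1), medians of 9890.5 (L2) and 11176 UMIs (L1)). The low-UMI cells had a summed marker level of 12300 (L2) and 11970 CPM (L1) and a member share of 1.67% (L2) and 1.36% (L1); the high-UMI cells had 1748 (L2) and 2355 CPM (L1) and 0.525% (L2) and 0.544% (L1) of UMIs. Library 1 thus held more of the cells that were poor in both. Epithelial markers summed to 2082 (L2) and 2212 CPM (L1) in the low-UMI cells and to 3486 (L2) and 3801 CPM (L1) in the high-UMI cells. The part of tumor-cell RNA in the high-UMI cells was not tested. In the low-UMI cells 4 members were past 1.5-fold higher, Arsb (log2 1.68), Gpnmb (0.70), Cd63 (0.62) and Gm2a (0.61), and 0 lower, while 3.48% of all genes were higher and 4.78% lower; the median over the 39 was 0.07. Gm2a had 1889 CPM in library 2 and 1240 CPM in library 1 there, Psap 3477 (L2) and 2482 CPM (L1), and Grn 2355 (L2) and 1650 CPM (L1), so all 3 remained on the same side with Psap and Grn under 1.5-fold. Cd68, with 355 (L2) and 342 CPM (L1), Laptm5, with 1198 (L2) and 1115 CPM (L1), and Hexa, with 496 (L2) and 522 CPM (L1), were nearly level. In the high-UMI cells Gpnmb was lower in library 2, with 11.95 (L2) and 37.5 CPM (L1) (log2 -1.57), and so was Laptm5, with 140 (L2) and 202 CPM (L1) (-0.52). Psap, with 575.2 (L2) and 575.6 CPM (L1), and Grn, with 601 (L2) and 618 CPM (L1), were level there. Over the whole class, 4 members were past 1.5-fold higher without doublet removal and 5 when each cell's share had equal weight. Without doublet removal the class held a cluster of 376 (L2) and 508 cells (L1) with a median of 15553 UMIs. These counts thus cover other cells than the low-UMI cells. Of the 39 members, 32 were higher in the low-UMI than in the high-UMI cells in both libraries, and 17 of 39 were past 2-fold over tumor-like cells and 0 lower when the low-UMI cells stood alone, where 11.6% of all genes were higher and 14.3% lower.

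**Figure D4:**
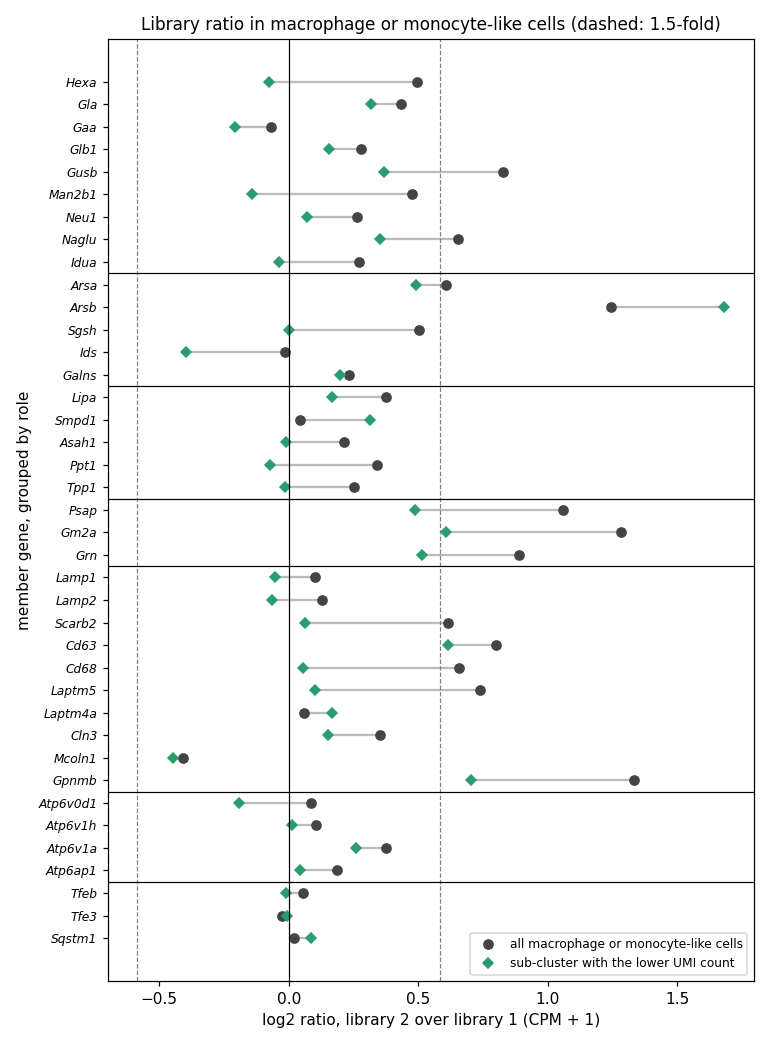
Log2 ratio of library 2 over library 1 for each of the 39 genes (rows, grouped by role) in all macrophage or monocyte-like cells (circles) and in their sub-cluster of lower UMI count (diamonds), with dashed lines at 1.5-fold. In all cells 12 members lie right of the dashed line, and in the sub-cluster 4 do, Cd63, Arsb, Gm2a and Gpnmb.

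The ratios of Arsb and Gpnmb in macrophage-like cells rested on few cells. For Arsb, 42.3% of 130 UMIs in library 2 and 10.8% of 83 UMIs in library 1 came from 3 cells, and without the 3 highest cells of each library the log2 ratio was 0.61. Dendritic markers summed to 505 CPM in library 2 and 332 CPM in library 1 in macrophage-like cells. In the 3 cells with most Arsb they summed to 31.8 CPM in library 2 and 333 CPM in library 1. Macrophage markers in those cells summed to 2197 (L2) and 3108 CPM (L1). The part of dendritic-like RNA in the Arsb ratio was not tested. For Gpnmb the log2 ratio without the 3 highest cells was 1.01.

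In fibroblast-like cells (458 cells in library 2 and 370 in library 1) Arsb was the only one of 37 measured members past 1.5-fold, with 35.2 CPM in library 2 and 56.8 CPM in library 1 (log2 -0.68), where 4.48% of all genes were higher and 4.21% lower. Without doublet removal its log2 ratio was -0.33 and 0 members passed on the lower side, while some other alternatives gave 2 or 3 lower. The median of the members was -0.09. Hexa, Gm2a, Cd63 and Scarb2, among the members past 2-fold higher here than in tumor-like cells, had ratios of -0.28, -0.11, 0.38 and -0.01. Laptm5 was past 2-fold higher as well, and Neu1 past 2-fold lower. In T or NK-like cells Sgsh and Gm2a were past 1.5-fold higher and Lamp1 lower of 37 members (9.28% and 5.25% of all genes). Gm2a had 389 CPM in library 2 and 179 CPM in library 1 there, and Lamp1 211 (L2) and 326 CPM (L1). Blood endothelial-like cells had Hexa alone past 1.5-fold, at 76.9 (L2) and 126 CPM (L1), as 1 of 34 members on the lower side (5.17% of all genes) and 0 on the higher (8.44%). Neutrophil-like cells, with 420514 UMIs in library 2 and 491509 in library 1 the shallowest of these classes, had 6 of 33 members higher, Gusb, Man2b1, Neu1, Ppt1, Cln3 and Gm2a, and 3 lower, Lamp1, Glb1 and Atp6v1h, where 10.9% and 9.9% of all genes passed. Gm2a thus lay past 1.5-fold higher in library 2 in macrophage-like, T or NK-like and neutrophil-like cells. Lamp1 lay past it on the lower side in T or NK-like and neutrophil-like cells. Macrophage markers summed to 1284 CPM in library 2 and 1547 CPM in library 1 in T or NK-like cells. In neutrophil-like cells they summed to 652 (L2) and 647 CPM (L1). Dendritic markers summed to 237 (L2) and 116 CPM (L1) in T or NK-like and to 281 (L2) and 159 CPM (L1) in neutrophil-like cells. The classes' own markers were higher in library 2, at 2771 (L2) and 1825 CPM (L1) and at 4766 (L2) and 2840 CPM (L1). The part of each of these in the ratios was not tested. Dendritic-like and pericyte-like cells, with under 100 cells in at least 1 library, were left out of this comparison.

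Within the tumor, 1 cluster stood above the rest in lysosomal RNA. Of 15 clusters of epithelial tumor-like or unnamed cells, the cluster numbered 17 was highest for 24 of the 39 members with both libraries summed. Of these, Laptm5, Laptm4a, Smpd1 and Gpnmb had another highest cluster in library 2, Gm2a in library 1 and Atp6v1a in both. Gpnmb rests there on 0 (L2) and 5 UMIs (L1). The cluster numbered 17 held 179 cells in library 2 and 155 in library 1 and had a median of 3109.5 UMIs. It was led by Clca1, Tm4sf5, Ly6d and Prap1. Its member share was 0.623% in library 2 and 0.586% in library 1, the highest of the 15, and the cluster was chosen for this share. Member levels above those of the other clusters follow in part from that choice and are no separate support for it. The median member was at 1.47 times the level of the other tumor-like clusters in library 2 and 1.44 times in library 1, where the median of all genes was at 0.770 in L2 and 0.785 in L1. Single members were seldom past 2-fold in both libraries: Arsb was the only one of 36 higher (0.582% of all genes), with 75.6 (L2) and 63.6 CPM (L1), against 27.7 (L2) and 27.3 CPM (L1) in the other tumor-like clusters, and Mcoln1 the only one lower (14.4%), with 26.2 (L2) and 45.7 CPM (L1), against 81.8 (L2) and 99.7 CPM (L1). Lamp1 had 512 (L2) and 522 CPM (L1) in this cluster, against 292 (L2) and 337 CPM (L1), Grn had 823 (L2) and 745 CPM (L1), against 451 (L2) and 438 CPM (L1), and Gaa had 261 (L2) and 214 CPM (L1), against 125 (L2) and 144 CPM (L1). Macrophage markers in it summed to 492 CPM in library 2 and 507 CPM in library 1, against 442 (L2) and 419 CPM (L1) in all tumor-like cells, and their part in these levels was not tested. Of the control genes, Sqstm1 had 188 (L2) and 155 CPM (L1) in this cluster, against 148 (L2) and 136 CPM (L1), Tfeb had 40.1 (L2) and 31.0 CPM (L1), against 38.4 (L2) and 40.2 CPM (L1), and Tfe3 had 61.7 (L2) and 42.4 CPM (L1), against 72.7 (L2) and 69.0 CPM (L1).

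**Figure D5:**
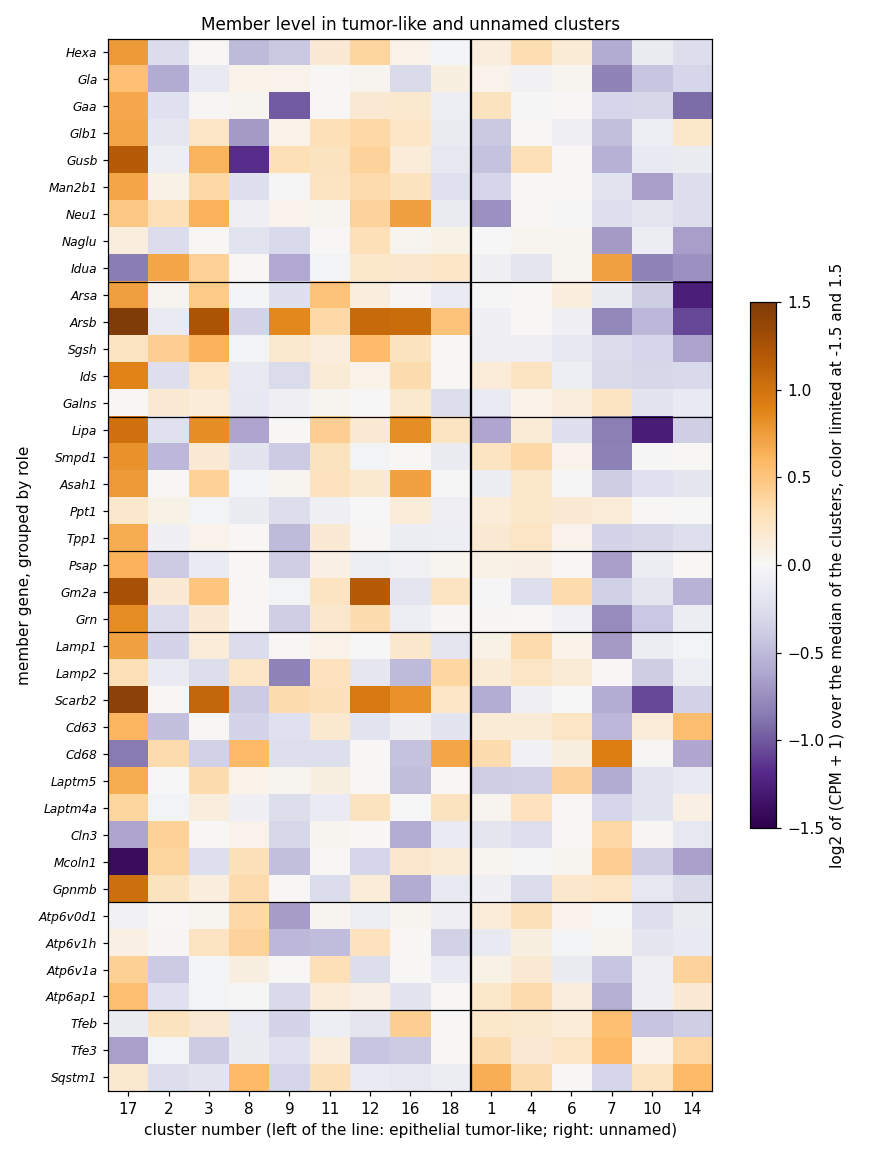
Level of each of the 39 genes (rows, grouped by role) in 15 clusters of tumor-like and unnamed cells, both libraries summed, as log2 of CPM + 1 over the median of the clusters. The column of the cluster numbered 17, at the left, is highest for 24 members, with Mcoln1, Idua and Cd68 among the exceptions.

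The other tumor-like and unnamed clusters lay between 0.316% and 0.456% of UMIs on the 39 genes. The unnamed cluster numbered 7 was the lowest, at 0.316% in library 2 and 0.324% in library 1. With both libraries summed, it was yet highest for 6 members, Cd68, Idua, Galns, Tfeb, Tfe3 and Mcoln1. Cd68 and Tfe3 were highest there in each library, and Idua, Galns, Tfeb and Mcoln1 in library 1 alone. A cluster led by the cell cycle genes Ube2c and Aurka was next, at 0.328% in library 2 and 0.361% in library 1. Sqstm1, which was highest in unnamed cells as a class, was highest in the unnamed cluster numbered 1, led by Gfra2, Trib3, Ereg and Areg. Arsb and Scarb2 were both higher in tumor-like than in unnamed cells. Arsb had 28.1 (L2) and 27.6 CPM (L1) in tumor-like cells, and 11.7 (L2) and 13.9 CPM (L1) in unnamed cells, and Scarb2 had 86.7 CPM in library 2 and 85.1 CPM in library 1 in tumor-like cells, and 40.5 (L2) and 44.5 CPM (L1) in unnamed cells.

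Other genes of the same pathways were read from lists. Of 32 measured other lysosome genes, 13 were at least 2-fold higher in macrophage-like than in tumor-like cells in both libraries and 0 lower, led by the cathepsin Ctss (80.4-fold in library 2 and 41.6-fold in library 1), Lgmn, a cysteine protease (11.03 in L2 and 5.82 in L1), Galc, the galactocerebrosidase (10.7 in L2 and 6.85 in L1), and Ctsc, a dipeptidyl peptidase (10.4 in L2 and 7.14 in L1). Of 13 other pump genes only Tcirg1, a pump subunit known from osteoclasts, passed (4.23 in L2 and 3.51 in L1), and of 13 other control genes only Tfec, a MiT/TFE factor (48.4 in L2 and 24.8 in L1). Of 15 autophagy genes Uvrag passed (3.53 in L2 and 2.61 in L1). None of the pump, control or autophagy genes was lower; 7.39% of all genes were higher and 4.58% lower. Between libraries, no gene of these lists was past 1.5-fold in tumor-like cells. In macrophage-like cells, where 7.56% of all genes were higher and 8.08% lower in library 2, 9 of 33 other lysosome genes were higher and 0 lower, Ctsk with 299 CPM in library 2 and 11.7 CPM in library 1, and Galc, Npc2, Scpep1, Ctsa, Ctsb, Ctsc, Ctsd and Ctss; 61.8% of the Ctsk UMIs of library 2 came from 3 cells. Of the other pump genes 3 of 14 were higher, Atp6v0d2, Atp6v1d and Atp6ap2; of 14 control genes Mitf and Tfec were higher and Rraga lower; of the autophagy genes 0 of 15 passed. In unnamed cells Ctsb, Ctsc, Ctsh and Fnip1 were lower in library 2 (1.22% of all genes). In fibroblast-like cells Ctns, Ctsf, Ctsk and Mitf were lower (4.21%) and Atg7 higher (4.48%). In T or NK-like cells Dpp7, Map1lc3a and Rab7 were lower (5.25%), and in blood endothelial-like cells Fuca1, Hgsnat, Ctsb, Atp6v0c, Flcn and Rraga were lower (5.17%), with 0 higher in both classes. In neutrophil-like cells genes such as Fuca1, Pla2g15, Gnptab, Ctsh, Ctss, Tcirg1 and Atp6v1d were higher (10.9%), and Hgsnat, Ctsl, Fnip1, Rragc, Map1lc3a, Gabarap and Gabarapl1 lower (9.9%).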

How the data were processed

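Raw UMI counts per gene and cell, as the authors deposited them in 1 matrix for both samples, were used; Cell Ranger 8.0.0 and mm10 are named per the submitters' processing notes. The number that ends each barcode, a deposited column of other kind, gave the library; labels do not tie it to a treatment. Cells with under 500 UMIs, under 200 genes or over 20% mitochondrial UMIs were left out, and the highest Scrublet-type doublet scores were removed at 0.8% per 1000 cells, since automatic thresholds marked 0 cells. Cells were clustered with scanpy 1.11.5 and leidenalg 0.10.2 (3000 variable genes without the listed lysosome genes, 50 components, 15 neighbors, resolution 1). A cluster was named where at least 3 markers reached 20 CPM and 2-fold. For each library, a class's counts were added up and divided by its total, with 1 CPM added in ratios. Members and lists were chosen with earlier results of these data known. Any member may be named; those past 2-fold over tumor-like cells in both libraries, or past 1.5-fold between libraries with at least 20 CPM and 30 UMIs, were described in full. With 1 library per number no test was run: nothing here separates a library from its treatment, and intervals cover counting error only. edgeR 4.0.16 and DESeq2 1.42.0 served only for scaling factors as alternatives, among 15 alternatives tried; summing, thresholds and intervals were tested on simulated data. Cells of clusters with immune genes but too few markers of 1 class, and islet-like cells, were not analysed here by member.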

Additional observations from a re-analysis of the deposited data

Results flagged for a closer look

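Arsb, arylsulfatase B, was past 1.5-fold in opposite directions in 2 cell classes. Its log2 ratio of library 2 over library 1 was 1.246 in macrophage-like cells and -0.676 in fibroblast-like cells. The difference between the classes was not tested, since each class has 1 library per number. Over the alternatives tried the macrophage-like ratio kept its sign, with 0.61 without the 3 highest cells, and the fibroblast-like ratio kept its sign, with -0.33 without doublet removal, where it was no longer past 1.5-fold.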

How the results depend on the processing

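No result reversed under any alternative. No paired analysis was possible because each library number has 1 library. The planned removal of macrophage-like clusters above 5000 UMIs gave no value at the resolution used, where the class is 1 cluster with a median of 3151 UMIs; it was run at resolution 2, chosen after seeing the data. There, 17 members were 2-fold higher in macrophage-like than in tumor-like cells, 4 were 1.5-fold higher in library 2, and the median log2 ratio was 0.068. Resolution 2 with all clusters moved the median in unnamed cells to -0.11 and the fibroblast-like count lower in library 2 to 2. With per-cell shares averaged, the macrophage-like values were 16 members over tumor-like cells, 5 higher and 1 lower in library 2, and a median of 0.083; 2 fibroblast-like members and 1 endothelial-like member were lower than tumor-like cells, 1 endothelial-like and 6 neutrophil-like members higher, 1 unnamed-cell member higher in library 2 and 2 fibroblast-like members lower. With cells thinned to 1000 UMIs, the macrophage-like values were 17 members and a median of 0.15; endothelial-like cells had 1 member higher and 1 lower than tumor-like cells, neutrophil-like cells 2 lower, unnamed cells 1 lower in library 2, and fibroblast-like cells 2 higher and 2 lower in library 2 with a median of -0.035. Without doublet removal, 4 macrophage-like members were higher in library 2 with a median of 0.094; 3 fibroblast-like members were higher and 0 lower than tumor-like cells, 1 endothelial-like member was higher, and 0 fibroblast-like members were lower in library 2. TMM factors gave 0 fibroblast-like and 1 neutrophil-like members lower than tumor-like cells, 3 fibroblast-like members lower in library 2 and a median of -0.16; median-of-ratios factors gave 8 fibroblast-like members higher and 0 lower, 3 lower in library 2 and a median of -0.17. No cell filter left 1 neutrophil-like member lower, and no filter on low genes 2 fibroblast-like members lower in library 2. With tumor-cell RNA subtracted, 7 T or NK-like members were higher and 1 lower, 2 fibroblast-like, 1 endothelial-like and 3 neutrophil-like members lower than tumor-like cells, and 3 fibroblast-like members lower in library 2. Without the 3 highest cells, 2 fibroblast-like, 1 endothelial-like and 3 neutrophil-like members were lower and 0 endothelial-like members higher. The cause was not tested. Depth limits dendritic-like and pericyte-like cells most, with 33 and 61 cells in library 1.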

Other observations

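An unnamed cluster of 65 cells in library 2 and 41 in library 1, led by the immune genes Napsa, Siglecg and H2-Oa and left out of the unnamed class, had 0.833% of its UMIs on the 39 genes in library 2 and 1.0% in library 1. Among macrophage-like cells, the 10 cells with most Gpnmb UMIs held 60.7% of that gene's UMIs in library 2 and 53.5% in library 1, and 3.20% and 2.11% of all UMIs of the class. In those cells Atp6v0d2, a pump subunit of osteoclasts and macrophages, had 22.1% and 24.4% of its class UMIs, and the protease Ctsk 0.276% and 0, so the cells with most Gpnmb were not those with most Ctsk.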
